A study of Mus musculus with 9 samples.

Results

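Extracellular metalloproteases and their inhibitors were examined in SB28 glioma cells grown in mouse brain. All rows of the deposited count table whose symbol begins with Mmp, Adam, Adamts or Timp followed by a digit were taken, which gave 79 genes among 24421 rows. These were 23 matrix metalloproteases (MMPs), 33 ADAMs, 19 ADAMTSs and 4 tissue inhibitors of metalloproteases (TIMPs). The rule used names and no measured value, but the genes, lists and tests were chosen with earlier results of these data known. RNA sequencing was used to ask how gene expression in the tumor cells differed after treatment with BAL101553, an oral prodrug that acts on microtubules and activates the spindle assembly checkpoint. The table holds 3 control libraries, 3 BAL101553 libraries and 3 libraries labelled astrocytes.

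SB28 is a C57BL/6 mouse glioma line engineered with GFP and luciferase. It was implanted in the brains of C57BL/6 mice aged 6 to 8 weeks, so that all libraries come from 1 strain. The study's methods describe the tumor cells as sorted for CD45- CD11b- GFP+. The sample labels nevertheless give whole tissue as the material of the control and BAL101553 groups. Control mice received vehicle and were killed 21 days after implantation, whereas treated mice were killed at day 33 or day 35, since the 2 descriptions of the harvest differ. The study's methods state that the days were set so that tumor volumes matched. Treatment and days of growth therefore cannot be told apart. The libraries labelled astrocytes carry the same strain and the treatment label BAL101553, and how these cells were obtained is not given in the sources used here. The study describes 2 ex vivo samples per group, whereas 3 control and 3 BAL101553 libraries were used here. Whether the sorting, harvest days and sequencing that it describes apply to each of these libraries is not stated. The labels do not say whether libraries of a group came from separate mice, so that p-values measure only the spread between these libraries.

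Reads per library numbered from 22919523 to 34013875. Replicates differed by more than sampling noise (chi-square over degrees of freedom, 14.9 to 68.4). In the 6 SB28 libraries, 9 microglia and macrophage genes, *Ptprc* (CD45) and *Itgam* (CD11b) among them, summed to between 2.21 and 5.03 CPM (reads of a gene scaled to the size of the library), against 481 to 1049 CPM in the libraries labelled astrocytes. Of these genes *P2ry12*, at or under 2.69 CPM in the SB28 libraries, was called lower after BAL101553. The astrocyte genes *Slc1a2*, *Slc1a3*, *Aqp4* and *Gfap* were each at or under 2.96 CPM in every SB28 library, whereas *Gja1* had 650 to 928 CPM, *Aldh1l1* 20.3 to 44.4 CPM and *Aldoc* 5.10 to 15.4 CPM. The 7 astrocyte genes summed to 940 to 971 CPM in controls, 681 to 797 CPM after BAL101553 and 11790 to 14510 CPM in the libraries labelled astrocytes, with *Gja1* called lower and *Slc1a3* called higher after BAL101553. Their part in the protease changes was not tested. Those libraries also held 10280 to 12720 CPM of 6 oligodendrocyte genes, against 15.3 to 20.6 CPM in the SB28 libraries, so that astrocyte and oligodendrocyte RNA were both present. A summed level in bulk RNA cannot separate fewer cells of a type from less RNA per cell.

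MMPs and ADAMTSs cut collagens, proteoglycans and other proteins of the extracellular matrix, and many are made as inactive precursors that another protease must open. ADAMs are membrane proteins, of which the catalytically active members shed growth factors, cytokines and receptors from the cell surface, while others have lost their catalytic site and act in adhesion or binding. TIMPs bind the active site of MMPs, and *Timp3* also inhibits several ADAMs and ADAMTSs. In gliomas these enzymes are known for their part in invasion along vessels and through a matrix rich in hyaluronan and lecticans.

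Of the MMP genes, 10 lie in a cluster on chromosome 9, between 7272514 and 7699585 in GRCm38, in the order *Mmp13*, *Mmp12*, *Mmp1b*, *Mmp3*, *Mmp1a*, *Mmp10*, *Mmp8*, *Mmp27*, *Mmp20* and *Mmp7*. The cluster holds the collagenases, which cut triple-helical collagen (*Mmp13*, *Mmp1a*, *Mmp1b* and *Mmp8*), and the stromelysins *Mmp3* and *Mmp10*, which have broad substrates and open other MMP precursors. Promoters of this family are a textbook target of AP-1, the transcription factor of Fos and Jun proteins. The letters of its consensus, TGAGTCA or the same site read on the other strand, TGACTCA, were looked for in the 250 bases before the start site in RefSeq promoter windows of GRCm38.p6. They were present in 4.46% of 32851 windows, in 6 of the 10 cluster genes (60%; *Mmp3*, *Mmp13*, *Mmp10*, *Mmp1a*, *Mmp1b* and *Mmp7*) and in 2 of the 39 other genes with a window (5.13%; *Adam19* and *Adam29*), 1 window being used per gene. Windows were found for 49 of the 79 genes. A further window of *Mmp12*, not the one used, also held the AP-1 letters. The share over all windows counts every window, not 1 per gene. Some windows lay far from the GENCODE gene start, such as those of *Adamts20* (61068 bases) and *Adam1a* (23787 bases). The letters TATAAA stood in 12.4% of all windows and in 7 of the 10 cluster windows. The 120 bases before the RefSeq start are shown for the 5 cluster genes that were tested between the SB28 groups and hold these letters, with the AP-1 letters in capitals. *Mmp3* and *Mmp13* were called between the groups and *Mmp10*, *Mmp1a* and *Mmp1b* were not.
Mmp3, chr9:7445702-7445821, plus strand: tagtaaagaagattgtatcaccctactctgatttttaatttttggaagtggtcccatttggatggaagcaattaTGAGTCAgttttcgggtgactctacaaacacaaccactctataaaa
Mmp13, chr9:7272394-7272513, plus strand: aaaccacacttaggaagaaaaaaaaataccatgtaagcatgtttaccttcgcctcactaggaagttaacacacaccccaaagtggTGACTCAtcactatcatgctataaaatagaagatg
Mmp10, chr9:7502222-7502341, plus strand: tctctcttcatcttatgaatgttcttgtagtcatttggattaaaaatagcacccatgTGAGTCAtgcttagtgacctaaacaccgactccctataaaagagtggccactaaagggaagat
Mmp1a, chr9:7464021-7464140, plus strand: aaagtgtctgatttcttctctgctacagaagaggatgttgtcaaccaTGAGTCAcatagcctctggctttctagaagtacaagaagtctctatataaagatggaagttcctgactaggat
Mmp1b, chr9:7388027-7388146, minus strand: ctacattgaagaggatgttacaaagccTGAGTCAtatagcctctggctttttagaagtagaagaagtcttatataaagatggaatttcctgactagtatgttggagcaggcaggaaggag
The AP-1 letters began 46 bases before the start of *Mmp3*, 35 before that of *Mmp13*, 63 before that of *Mmp10*, 73 before that of *Mmp1a* and 93 before that of *Mmp1b*. The RefSeq start of *Mmp10* differs by 10 bases, and that of *Mmp1b* by 21, from the start in the GENCODE annotation. A match of letters is a description and not a binding site.

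Many of the 79 genes were near silent in SB28 tumors. No read was counted in any of the 9 libraries for 12 genes, which were *Mmp7*, *Mmp20*, *Mmp21* and 9 ADAM genes of the group known from testis and epididymis. In each of the 6 SB28 libraries 29 genes had at most 3 reads. Genes were ranked by CPM divided by the length of the merged exons in kb, while shares and ratios of summed CPM are of reads, not corrected for length, and serve to compare libraries. On that scale *Timp1* ranked 11 of 24027 genes in the control group at 1678 CPM per kb, followed within the family by *Mmp3* (rank 82, 426.5 CPM per kb), *Timp2* (306, 154), *Mmp14* (367, 126.5), *Mmp10* (545, 88.5), *Mmp2* (934, 54.2) and *Adam10* (949, 53.6). *Mmp3* and *Mmp14* together carried 70.9% to 82.4% of the summed MMP CPM in the SB28 libraries.

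Between BAL101553 and control, *Mmp3* and *Mmp13* rose, the inhibitor *Timp1* fell, and the proteoglycanases *Adamts1*, *Adamts4* and *Adamts5* rose. Of the 79 genes, 41 had enough reads to be tested with edgeR's quasi-likelihood test, in which p-values were adjusted by Benjamini-Hochberg over all 12633 genes tested and called under 0.05. Of these, 12 rose and 3 fell, so that 36.6% were called, against 14.7% of all genes tested (8.64% higher and 6.09% lower). The median log2 fold change was 0.24 over the 41 genes and 0.02 over all genes. By family, 4 of 15 MMPs, 1 of 3 TIMPs, 5 of 11 ADAMs and 5 of 12 ADAMTSs were called. Groups did not overlap for any of the 15 called genes, and for 19 of the 41 in all, where 39.7% of all genes tested had groups that did not overlap (20.1% higher and 19.6% lower). The other 4 were *Timp2*, *Adam9* and *Adam4*, higher in each BAL101553 library, and *Adamts8*, lower in each. The other 38 genes were not tested, 12 with no read and 26 with few. *Adam33* and *Mmp23* had no control library over the minimum of reads and were tested only through the BAL101553 group, so that the direction of these 2 rises was fixed by the selection. *Adam1a* and *Adam4* had 2 control libraries and 3 BAL101553 libraries over the minimum, so that the selection favored their direction. Thus 3 of the 12 rises entered through the BAL101553 group.

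**Figure D1:**
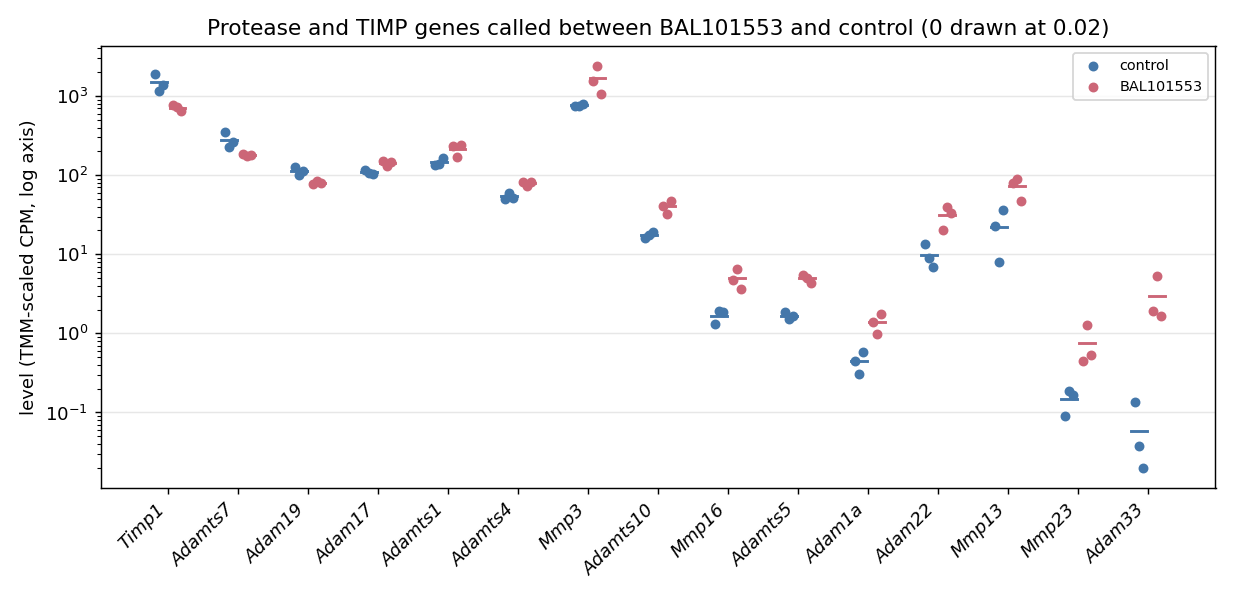
Levels of the 15 protease and TIMP genes called between BAL101553 and control, as TMM-scaled CPM on a log axis, 1 point per library and a line at the mean of each group. Genes are ordered from the largest fall (*Timp1*) to the largest rise (*Adam33*), a library with no read is drawn at 0.02, and no gene's groups overlap.

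Among the inhibitors, *Timp1* (chromosome X, 20870166 to 20874735) had 1904, 1173 and 1394 CPM in control libraries 1, 2 and 3 and 775, 726 and 640 CPM in BAL101553 libraries 1, 2 and 3. Each BAL101553 library lay below each control library. The fall was 1.06 on the log2 scale (SE 0.18, adjusted p = 0.0141). *Timp2*, which besides inhibiting MMPs helps *Mmp14* to open the precursor of *Mmp2*, had 598, 612 and 589 CPM in controls and 664, 621 and 686 CPM after BAL101553. Its groups did not overlap, but its log2 fold change of 0.14 (SE 0.08) did not pass (adjusted p = 0.292). *Timp3* had 223, 118 and 159 CPM in controls and 319, 119 and 255 CPM after BAL101553, with overlapping groups (log2 fold change 0.48, SE 0.36, adjusted p = 0.381). *Timp4* had 1 read in the 6 SB28 libraries together. *Timp1* made up 61.6% to 69.9% of the summed TIMP CPM in control libraries and 40.5% to 49.6% after BAL101553.

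**Figure D2:**
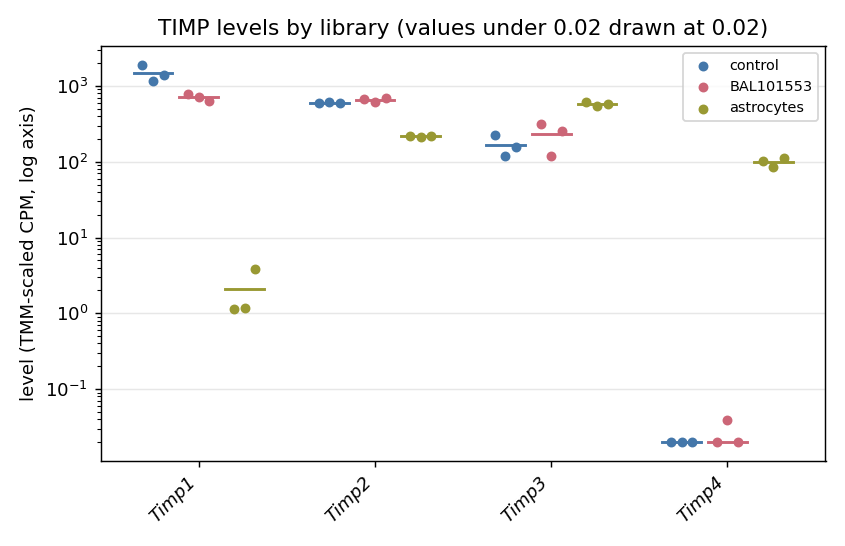
Levels of the 4 TIMP genes in each library as TMM-scaled CPM on a log axis, with points for libraries and lines for group means; values under 0.02 are drawn at 0.02. *Timp1* falls from controls to BAL101553 and lies between 1.14 and 3.89 CPM in the libraries labelled astrocytes, where *Timp4* lies between 84.7 and 114 CPM.

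Among the stromelysins, *Mmp3* (chromosome 9, 7445822 to 7455975) had 751, 758 and 795 CPM in controls and 1573, 2400 and 1054 CPM after BAL101553. The controls lay close together, while the BAL101553 libraries spread from 1054 to 2400 CPM and all lay above them. The log2 fold change was 1.13 (SE 0.26, adjusted p = 0.0306). *Mmp10* had 156, 78.1 and 223 CPM in controls and 122, 123 and 58.2 CPM after BAL101553, which overlapped (log2 fold change -0.59, SE 0.40, adjusted p = 0.333). *Mmp11*, also named a stromelysin, had 13.4 to 15.9 CPM in controls and 13.6 to 21.8 CPM after BAL101553 and did not pass.

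Of the collagenases, *Mmp13* had 22.5, 7.96 and 35.8 CPM in controls and 80.1, 89.96 and 47.6 CPM after BAL101553. Its lowest BAL101553 library was above its highest control, and its log2 fold change of 1.72 (SE 0.48) was at the edge of the threshold (adjusted p = 0.0499). *Mmp1a* had 10.4, 8.60 and 10.99 CPM in controls and 7.11, 9.19 and 4.39 CPM after BAL101553 (log2 fold change -0.53, SE 0.27, adjusted p = 0.204). *Mmp1b* had 6.37, 4.85 and 8.59 CPM in controls and 7.08, 6.43 and 3.36 CPM after BAL101553 (log2 fold change -0.23, SE 0.33, adjusted p = 0.655). *Mmp1a* and *Mmp1b* are paralogs, and how reads shared between them were counted is not given in the sources used here. *Mmp12*, the macrophage elastase, had 9.65, 9.17 and 19.4 CPM in controls and 8.17, 9.43 and 4.68 CPM after BAL101553 and did not pass. Thus 2 of the 6 tested genes of the chromosome 9 cluster rose, beside 8.64% higher over all genes tested. The other 4 had log2 fold changes from -0.77 to -0.23 and overlapping groups. With 1 library left out, *Mmp13* was called in 1 and *Mmp3* in 2 of 6 fits.

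**Figure D3:**
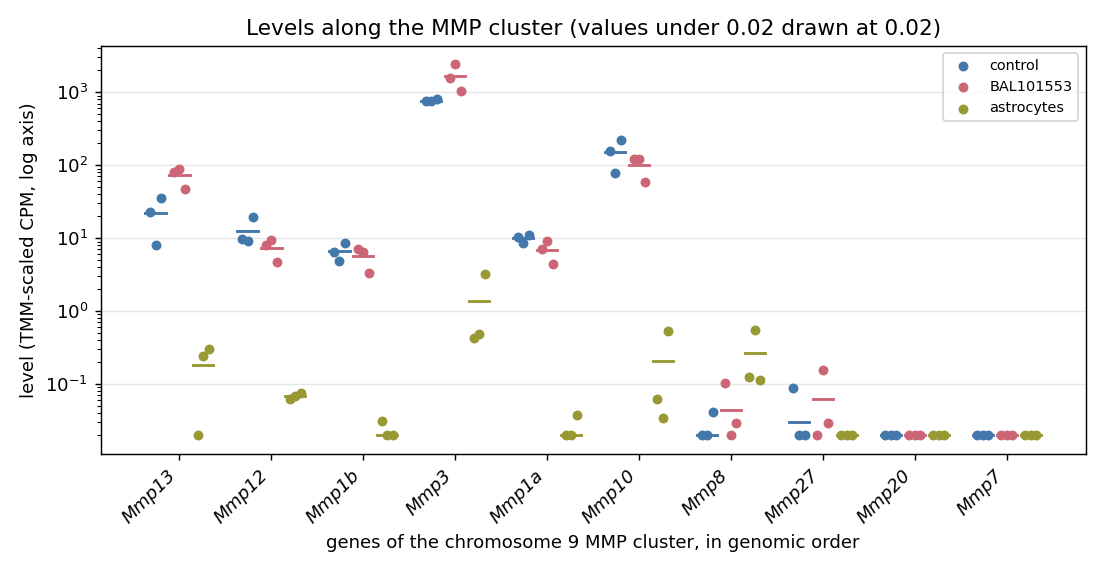
Levels of the 10 genes of the chromosome 9 MMP cluster in genomic order, as TMM-scaled CPM on a log axis, with points for libraries and lines for group means; values under 0.02 are drawn at 0.02. *Mmp13* and *Mmp3* are higher after BAL101553, their neighbors *Mmp12*, *Mmp1b*, *Mmp1a* and *Mmp10* overlap between the SB28 groups, and these 6 genes are low in the libraries labelled astrocytes.

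The gelatinases cut denatured collagen and type IV collagen of basement membranes. *Mmp2* had 83.95, 239 and 225 CPM in controls and 226, 342 and 223 CPM after BAL101553, and the groups overlapped (log2 fold change 0.54, SE 0.36, adjusted p = 0.329). *Mmp9* had 1.84, 9.32 and 4.12 CPM in controls and 17.2, 4.89 and 18.7 CPM after BAL101553, also overlapping (log2 fold change 1.42, SE 0.63, adjusted p = 0.154). Neutrophils are a known source of *Mmp9*, and the sort of CD45- CD11b- cells that the study describes would remove them. Of 6 neutrophil genes measured, 4 had no read in any SB28 library, among them *S100a9*, *Mpo* and *Elane*, while the list summed to 0.631 to 1.10 CPM in controls and 1.15 to 3.01 CPM after BAL101553, nearly all of it *S100a8*. The part of these cells in the level of *Mmp9* was not tested.

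The membrane-type MMPs act at the cell surface. *Mmp14*, the main activator of *Mmp2*, had 768, 724 and 770 CPM in controls and 822, 924 and 728 CPM after BAL101553, with overlapping groups (log2 fold change 0.14, SE 0.11, adjusted p = 0.424). *Mmp16* rose from 1.30, 1.90 and 1.85 CPM to 4.68, 6.51 and 3.65 CPM (log2 fold change 1.56, SE 0.29, adjusted p = 0.0183). The remaining MMP that rose was *Mmp23*, from 2, 5 and 4 reads in the control libraries to 13, 32 and 18 reads after BAL101553 (log2 fold change 2.26, SE 0.58, adjusted p = 0.0401). *Mmp19* had 100.4, 86.3 and 82.6 CPM in controls and 98.6, 86.0 and 127 CPM after BAL101553 and did not pass (log2 fold change 0.21, SE 0.15, adjusted p = 0.352).

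The MMPs summed to 1941, 1957 and 2207 CPM in controls and 2999, 4037 and 2319 CPM after BAL101553, and the TIMPs to 2725, 1903 and 2142 CPM and 1758, 1466 and 1581 CPM. The ratio of these sums was 0.712, 1.03 and 1.03 in controls and 1.71, 2.75 and 1.47 after BAL101553. Without *Mmp3* and *Timp1* the ratio was 1.45, 1.64 and 1.89 in controls and 1.45, 2.21 and 1.35 after BAL101553, and the groups overlapped. The separation of the ratio thus rested on these 2 genes, and it is a ratio of reads, not of protein or of enzyme activity. Per length, *Timp1* lay above *Mmp3* in each control library, at 2144, 1321 and 1570 against 417, 421 and 441 CPM per kb. In BAL101553 libraries 1, 2 and 3 *Timp1* had 872, 818 and 721 CPM per kb and *Mmp3* 873, 1333 and 585 CPM per kb, so that the order of the genes differed between these libraries.

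Among the ADAMs that shed membrane proteins, *Adam17*, which releases tumor necrosis factor and EGF receptor ligands, had 118, 107 and 104 CPM in controls and 150, 130 and 146 CPM after BAL101553. All BAL101553 libraries were higher, and the rise was the smallest of the 15 called (log2 fold change 0.38, SE 0.09, adjusted p = 0.0356). *Adam19*, a sheddase of neuregulins, fell from 127, 101 and 114 CPM to 77.4, 83.7 and 79.3 CPM (log2 fold change -0.51, SE 0.10, adjusted p = 0.0227). *Adam10*, which opens Notch receptors to further cleavage, had 266, 283 and 241 CPM in controls and 243, 266 and 246 CPM after BAL101553 (log2 fold change -0.06, SE 0.10, adjusted p = 0.691). *Adam9* had 200, 188 and 179 CPM in controls and 211, 222 and 235 CPM after BAL101553, and its groups did not overlap although it did not pass (log2 fold change 0.24, SE 0.09, adjusted p = 0.101). *Adam15* had 201, 198 and 200.3 CPM in controls and 179, 98.2 and 203 CPM after BAL101553, where BAL101553 library 2 was low (log2 fold change -0.32, SE 0.23, adjusted p = 0.369).

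*Adam33* (chromosome 2, 131050591 to 131063814) is a catalytically active ADAM known from airway smooth muscle and fibroblasts, and its fitted change was the largest of the 41 genes. It had 3, 1 and 0 reads in the control libraries and 56, 133 and 57 reads after BAL101553, or at most 0.135 CPM against 1.68 to 5.25 CPM. Over the summed reads, 4 against 246, the ratio of levels was 50.3 with a 95% exact binomial interval from 19.4 to 186, which covers counting error only. The fitted log2 fold change of 5.62 (SE 0.83, adjusted p = 0.01) depends on the prior count at such low levels. *Adam8*, an ADAM of leukocytes, was just outside the threshold at 5.34, 2.80 and 3.24 CPM in controls and 11.4, 24.2 and 5.18 CPM after BAL101553 (log2 fold change 1.85, SE 0.54, adjusted p = 0.0549).

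*Adam22* lacks a catalytic site and is known in neurons as a receptor of the secreted protein LGI1. It rose from 13.7, 8.87 and 6.99 CPM in controls to 20.1, 40.1 and 33.1 CPM (log2 fold change 1.67, SE 0.32, adjusted p = 0.0184). Its partners in that group, *Adam11* and *Adam23*, had at most 13 and 1 reads in an SB28 library and were not tested. *Adam1a*, of the group known from the reproductive tract, rose from 10, 8 and 14 reads to 41, 25 and 59 reads (log2 fold change 1.63, SE 0.38, adjusted p = 0.0309). Its exons overlap those of *Mapkapk5* and *Gm42878* on the same strand, so that its value is uncertain. Of the 21 genes of the reproductive tract group, only *Adam1a* and *Adam4* had enough reads to be tested.

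Of the ADAMTSs that cut aggrecan and versican, 5 were tested, 3 rose and none fell, against 8.64% higher and 6.09% lower over all genes tested. *Adamts1* had 134, 137 and 164 CPM in controls and 235, 168 and 239 CPM after BAL101553, where the lowest treated library was barely above the highest control (log2 fold change 0.57, SE 0.15, adjusted p = 0.0434). *Adamts4* rose from 50.6, 59.1 and 51.8 CPM to 82.9, 73.5 and 82.3 CPM (log2 fold change 0.57, SE 0.10, adjusted p = 0.0140). *Adamts5*, the major aggrecanase of mouse cartilage, was at 1.88, 1.52 and 1.64 CPM in controls and 5.51, 5.01 and 4.36 CPM after BAL101553 (log2 fold change 1.56, SE 0.22, adjusted p = 0.00934). The groups lay far apart relative to their spread. *Adamts9* had 18.4, 23.8 and 19.7 CPM in controls and 26.4, 14.9 and 29.9 CPM after BAL101553, and *Adamts8* had 5.21, 4.36 and 4.67 CPM and 1.37, 4.03 and 2.03 CPM; neither passed.

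*Adamts10* (chromosome 17, 33524204 to 33553782), which binds fibrillin and takes part in microfibril assembly, rose from 16.1, 17.6 and 19.2 CPM to 40.8, 32.7 and 47.5 CPM. Its log2 fold change of 1.20 (SE 0.15) had the lowest adjusted p of the 41 genes (0.00728). *Adamts7*, which cuts cartilage oligomeric matrix protein, fell from 356, 227 and 261 CPM to 187, 176 and 179 CPM (log2 fold change -0.63, SE 0.16, adjusted p = 0.0393). The procollagen N-proteinases, which trim fibrillar procollagens, did not pass. *Adamts14* had 171, 209 and 209 CPM in controls and 174, 156 and 184 CPM after BAL101553 (log2 fold change -0.19, SE 0.11, adjusted p = 0.259). *Adamts2* had 23.7, 34.1 and 40.5 CPM in controls and 34.4, 35.04 and 36.2 CPM after BAL101553 (log2 fold change 0.11, SE 0.18, adjusted p = 0.696). The summed level of the 33 ADAMs lay between 905 and 1007 CPM in controls and between 914 and 1033 CPM after BAL101553, and that of the 19 ADAMTSs between 746 and 810 CPM and between 700 and 846 CPM, so that both sums overlapped.

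**Figure D4:**
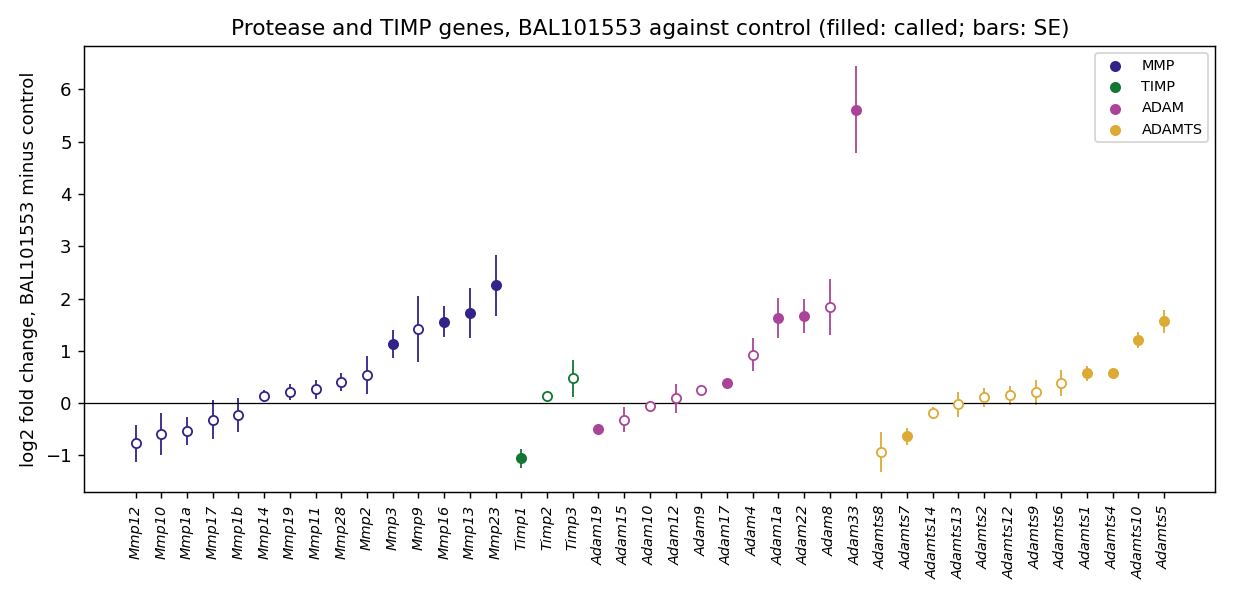
Log2 fold changes of the 41 tested protease and TIMP genes between BAL101553 and control, grouped by family, with bars for the standard error and filled points for genes called (adjusted p under 0.05). *Adam33* stands highest at 5.62, *Timp1* lowest of all at -1.06, and most open points lie near 0.

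Markers of vessel cells moved between the groups as well. Of 6 mural genes, *Kcnj8*, *Abcc9* and *Vtn* were each at or under 0.41 CPM in every SB28 library, while the list summed to 283 to 506 CPM in controls and 489 to 655 CPM after BAL101553 through *Cspg4* and *Pdgfrb*, of which *Pdgfrb* rose and *Rgs5* fell from 7.07 CPM or less. The 7 endothelial genes summed to 740 to 868 CPM in controls and 516 to 647 CPM after BAL101553. Most of this was *Cdh5*, which was called lower after BAL101553, while *Pecam1* was at or under 1.21 CPM. In the libraries labelled astrocytes the mural list summed to 1082 to 1249 CPM and the endothelial list to 187 to 219 CPM. There *Vtn*, *Kcnj8*, *Abcc9*, *Rgs5*, *Cldn5*, *Pecam1*, *Kdr*, *Tek* and *Emcn* were called higher than after BAL101553. *Cspg4*, *Pdgfrb* and *Cdh5* were called lower, and *Flt1* was not called. The part of these lists in the protease changes was not tested.

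Proteins that activate, dock or inhibit these enzymes were read from the same test in 8 lists of 70 genes, of which 69 were in the table, 49 were tested, 9 rose and 6 fell, against 8.64% higher and 6.09% lower over all genes tested. The plasminogen system opens MMP precursors, and 2 of its 6 tested genes fell and none rose, beside 6.09% lower over all genes. *Plau*, the urokinase protease, had 2047, 1673 and 1855 CPM in controls and 1015, 1317 and 790 CPM after BAL101553 (log2 fold change -0.83, SE 0.19, adjusted p = 0.0283), and its receptor *Plaur* fell by 0.61 on the log2 scale (adjusted p = 0.0288). *Furin*, the convertase that removes the propeptide of membrane-type MMPs, ADAMs and ADAMTSs, had 410, 358 and 385 CPM in controls and 226, 212 and 253 CPM after BAL101553 (log2 fold change -0.73, SE 0.10, adjusted p = 0.00906), 1 of 3 tested convertases called. Of 7 tested partners of *Adam10* and *Adam17*, 1 was called, *Rhbdf1*, an inactive rhomboid protein that carries *Adam17* to the surface, with 69.0, 73.0 and 71.9 CPM in controls and 107, 90.6 and 98.0 CPM after BAL101553 (log2 fold change 0.47, SE 0.09, adjusted p = 0.0182).

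The ADAMTS-like proteins share the accessory domains of ADAMTSs but have no protease domain. Of 6 tested, 3 rose and none fell, beside 8.64% higher over all genes: *Thsd4* at a log2 fold change of 2.11 (adjusted p = 0.00831), *Adamtsl2* at 1.37 (adjusted p = 0.0185) and *Adamtsl3* at 1.04 (adjusted p = 0.0141). Of 7 tested EGF family ligands, which ADAMs release, *Hbegf* fell from 288, 275 and 286 CPM to 199, 151 and 145 CPM (log2 fold change -0.77, adjusted p = 0.0136) and *Egf* rose from at most 0.341 CPM to between 0.752 and 0.943 CPM (log2 fold change 1.91, adjusted p = 0.0281). With 4, 9 and 3 reads in controls, *Egf* was tested only through the BAL101553 group, so that the direction of its rise was fixed by the selection. Of 8 tested inhibitors, inducers and clearance proteins of MMPs, *Thbs1* fell (log2 fold change -0.56, adjusted p = 0.0160) and *Cav1* rose (log2 fold change 1.37, adjusted p = 0.0132). The list of other matrix proteases, which includes the heparan sulfate cutter *Hpse*, had 11 tested genes. Of these, *Mme* (log2 fold change 3.26), *Hpse* (1.29) and the collagen-cutting cathepsin *Ctsk* (0.92) rose and *Htra3* (-1.03) fell. Of the lecticans and link proteins that ADAMTSs cut, only versican, *Vcan*, had enough reads to be tested, and it did not pass (log2 fold change 0.49, adjusted p = 0.107).

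Exons of *Adam8*, *Adam15*, *Adam17*, *Adam19*, *Adamts4*, *Adamts7*, *Adamts8*, *Adamts9*, *Mmp11*, *Mmp19*, *Mmp24*, *Mmp28*, *Timp3* and *Timp4* overlap exons of a gene on the opposite strand, as do those of *Mmp12* and *Mmp1b* with each other, and whether the counting used strand is not given in the sources used here, so that part of their reads is uncertain.

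The number of called genes depended on the libraries. Since the groups of the 15 did not overlap, leaving out 1 library could hardly reverse a direction, and none reversed. Without control 1, *Adam22*, *Adam33*, *Adamts5*, *Adamts10* and *Timp1* were called (3.56% of all genes). Without control 2, 10 of the 15 were called, which left out *Adam17*, *Adam1a*, *Adamts1*, *Mmp23* and *Mmp3* (9.85% of all genes). Without control 3, *Adamts10* alone was called by the quasi-likelihood test, when 14 genes higher and 3 lower had an unadjusted p under 0.05 and edgeR's exact test and DESeq2 each called 11 higher and 3 lower. Of all genes, 1.5% were called by the quasi-likelihood test, 10.05% by the exact test and 12.5% by DESeq2, and 24.9% had an unadjusted p under 0.05. Without BAL101553 library 1, 8 of the 15 were called (*Adam22*, *Adam33*, *Adamts4*, *Adamts5*, *Adamts10*, *Mmp16*, *Mmp23* and *Timp1*; 8.87%). Without BAL101553 library 2, 12 of the 15 and *Adamts8* were called, and *Adamts7*, *Mmp13* and *Mmp23* were not (13.4%). Without BAL101553 library 3, *Adam33*, *Adamts4*, *Adamts5*, *Adamts10*, *Mmp3*, *Mmp16* and also *Adam8* were called and the quasi-likelihood test called no gene lower (5.26%), where 3 genes lower had an unadjusted p under 0.05 and the exact test and DESeq2 each called 3 lower. Of all genes the exact test called 13.9% and DESeq2 16.1%, and 28.4% had an unadjusted p under 0.05. With control 1 and 2 and BAL101553 2 and 3 alone, the quasi-likelihood test called none of the 41 genes and 1 gene in all, when 13 higher and 3 lower had an unadjusted p under 0.05, the exact test called 9 higher and 1 lower, and DESeq2 called 6 higher and 2 lower. Of all genes the exact test called 8.13% and DESeq2 8.05%, and 21.03% had an unadjusted p under 0.05. *Adamts10* was called in all 6 of the fits that left out 1 library, *Adam33* and *Adamts5* in 5, *Timp1*, *Adam22*, *Adamts4* and *Mmp16* in 4, *Mmp3* and *Adam19* in 2, and *Mmp13*, *Mmp23*, *Adam17*, *Adam1a*, *Adamts1* and *Adamts7* in 1. Over these 6 fits the log2 fold change lay between 0.77 and 1.38 for *Mmp3*, between -1.21 and -0.84 for *Timp1*, between 1.07 and 1.32 for *Adamts10* and between 4.91 and 6.92 for *Adam33*.

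The libraries labelled astrocytes were compared with the BAL101553 libraries, which carry the same treatment label, so that the labels differ in cell type. The way the cells were obtained, the day of harvest and RNA of other cells may differ as well and cannot be told apart from it. The BAL101553 libraries enter both comparisons. Here 55 of the 79 genes were tested, 20 were higher and 27 lower in the libraries labelled astrocytes, and 85.5% were called, close to the 85.1% of all 15314 genes tested (46.3% higher and 38.9% lower). Of the 20 higher, 13 reached the minimum of reads only through the libraries labelled astrocytes. Of the 27 lower, 6 reached it only through the BAL101553 libraries. The direction of these calls was fixed by the selection. Groups did not overlap for 48 of the 55 genes (87.3%; 21 higher and 27 lower), against 87.8% of all genes tested (47.6% higher and 40.2% lower). The scaling moved the median log2 fold change of all genes from 0.18 with TMM to 0.36 with upper quartile scaling and 0.39 with total library sizes, and the values given here are those with TMM.

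The chromosome 9 cluster was low in the libraries labelled astrocytes. Its 6 tested genes were all called lower, beside 38.9% lower over all genes tested. *Mmp3* had 0.432, 0.483 and 3.21 CPM in libraries 1, 2 and 3, a level 1220-fold below the BAL101553 mean (log2 fold change -10.29, SE 0.78, adjusted p = 5.34e-06). *Mmp10* had 0.0617, 0.0345 and 0.528 CPM (2, 1 and 14 reads; log2 fold change -8.97) and *Mmp13* no read, 0.241 and 0.302 CPM (log2 fold change -8.67). The sizes rested on single libraries: without library 3 the log2 fold change was -11.80 for *Mmp3* and -10.87 for *Mmp10*, and without library 1 that of *Mmp13* was -8.02. *Mmp1a*, *Mmp1b*, *Mmp10*, *Mmp12* and *Mmp13* were tested through the BAL101553 group, so that their direction here was fixed by the selection. *Mmp1a* and *Mmp1b* had 1 read each in the 3 libraries together, and were at least 66.9-fold and 54.6-fold lower when 3 reads per library are taken as the floor. *Mmp8*, a collagenase of neutrophils, had 4, 16 and 3 reads there and at most 3 in an SB28 library, and it was too low to be tested. Its highest count was in library 2, where the neutrophil genes summed to 24.3 CPM, against 6.41 and 5.55 CPM in libraries 1 and 3. The part of neutrophils in this count was not tested.

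*Timp1* had 1.14, 1.17 and 3.89 CPM in the libraries labelled astrocytes, 345-fold below the BAL101553 mean (log2 fold change -8.45, SE 0.46, adjusted p = 8.54e-07). Library 3 held the highest level of *Timp1*, *Mmp3* and *Mmp10* of these 3 libraries, and without it the log2 fold change of *Timp1* was -9.24. *Timp3* was higher there, at 623, 547 and 579 CPM (log2 fold change 1.34, SE 0.32, adjusted p = 0.00436), and *Timp2* lower, at 221, 215 and 222 CPM (log2 fold change -1.57, SE 0.09, adjusted p = 1.03e-06). *Timp4*, a TIMP known from brain and heart, had 102, 84.7 and 114 CPM and was at least 970-fold higher. The ratio of summed MMP to summed TIMP CPM was 0.243, 0.248 and 0.237. *Mmp2* (4.25, 6.17 and 5.43 CPM; 49.9-fold lower) and *Mmp14* (112, 93.8 and 110 CPM; 7.85-fold lower) were also low.

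Of the 29 genes with at most 3 reads in each SB28 library, 8 were called higher in the libraries labelled astrocytes. These genes could be tested only through that group, so that their direction was fixed by the selection and is given as a description. Besides *Timp4* these were *Mmp24*, *Adam18*, *Adam23*, *Adamts3*, *Adamts15*, *Adamts16* and *Adamts20*. *Adam23*, which like *Adam22* has no catalytic site and binds LGI1, had 68.2, 53.2 and 43.6 CPM and was at least 534-fold higher. *Adamts20* had 86.7, 77.1 and 93.3 CPM and was at least 831-fold higher. *Adamts16* (3.67, 3.73 and 4.42 CPM) was at least 38.2-fold and *Adamts3* (1.67, 1.34 and 1.28 CPM) at least 13.9-fold higher, and the 3 genes were at or under 0.126 CPM in each SB28 library. Of the other non-catalytic ADAMs of brain, *Adam11*, likewise tested through that group, had 64.1, 70.02 and 62.2 CPM, and *Adam22*, which had enough reads in both groups, was called higher at 85.02, 78.8 and 75.8 CPM. The microglia, oligodendrocyte, mural and endothelial levels given above moved with the cell type label as well, and their part in these differences was not tested.

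Several sheddases were measured in both cell types. *Adam10* had 123, 131 and 106 CPM, *Adam17* 56.6, 61.4 and 50.5 CPM, *Adam9* 85.2, 98.7 and 83.1 CPM and *Adam19* 38.99, 39.9 and 30.2 CPM in the libraries labelled astrocytes, each called lower than after BAL101553 in SB28 cells, by 2.10- to 2.53-fold. *Adam12* (8.11-fold) and *Adam8* (5.7-fold) were lower by more, *Adam15* had 104, 120 and 118 CPM and did not pass, and *Adam28* had at most 2 reads in any library. Among the ADAMTSs, *Adamts4* was higher (161, 172 and 122 CPM; log2 fold change 0.94), while *Adamts7* (1.36, 1.52 and 1.93 CPM; 113-fold lower) and *Adamts14* (0.832, 0.828 and 1.51 CPM; 162-fold lower) were nearly absent. Of the 15 genes called between BAL101553 and control, 4 were not called here: *Mmp16*, *Adam33*, *Adamts5* and *Adamts10*. *Adamts5* had 4.56, 5.31 and 3.92 CPM, and *Adam33* had 0.709, 2.04 and 1.43 CPM, both overlapping the BAL101553 libraries. A p that misses the threshold does not show that these levels are the same.

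**Figure D5:**
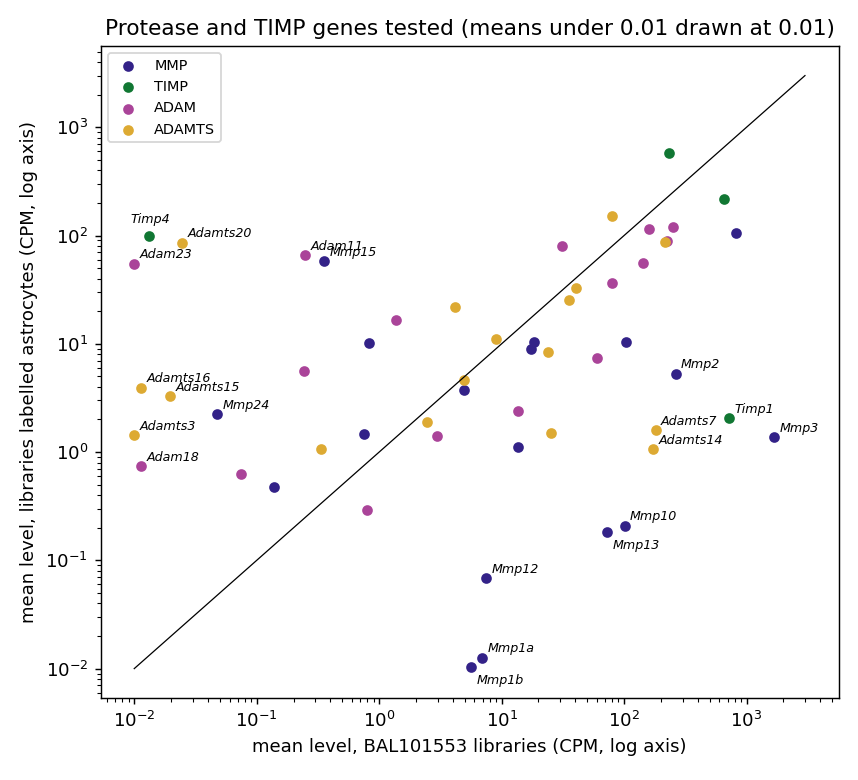
Mean TMM-scaled CPM of the 55 tested protease and TIMP genes in the libraries labelled astrocytes against the BAL101553 libraries, both on log axes, colored by family, with a line of equal levels; means under 0.01 are drawn at 0.01 and genes with a log2 fold change over 5 in size are named. *Mmp3*, *Timp1* and the chromosome 9 cluster lie far below the line, and *Timp4*, *Adam23* and *Adamts20* far above it.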

How the data were processed

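The study's methods describe RNA from sorted SB28 cells, sequenced from stranded libraries as 50 bp reads. They do not describe the cells labelled astrocytes, and whether these details apply to each library used here is not stated. The submitters' processing notes name TopHat, HTSeq 0.6.1 and mm10. The authors deposited raw counts of reads per gene, not normalized, in 24421 rows, of which 27 have a name that was turned into a date (2 of these names occur more than once); these rows were kept in library sizes and tests. The annotation used for counting is not given in the sources used here.

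Differential expression was tested on the counts with edgeR 4.0.16 in R 4.3.3 (filterByExpr, TMM scaling, quasi-likelihood test, two-sided, Benjamini-Hochberg over all genes tested, threshold 0.05), with only the compared groups in each fit. Alternatives used edgeR's exact test, DESeq2 1.42.0, limma-trend (limma 3.58.1, prior count 2), other scalings and filters, all 9 libraries in one model, the replicate number as a block, and libraries left out. The exact test and DESeq2 in fits where the quasi-likelihood test made few or no calls were added after the data were seen. Levels are CPM scaled by TMM over all 9 libraries, and each standard error was obtained from the fold change and its F statistic. Groups came from the labels. The tests were run on simulated data in which 200 genes were changed 2-fold. For BAL101553 against control 137 of these were recovered (68.5%) with 9 false calls. For astrocytes against BAL101553 128 were recovered (64%) with 6 false calls. Positions, overlaps and exon lengths were taken from GENCODE vM21 (GRCm38), where 23350 of the names were found directly and 677 as an older symbol; promoters came from RefSeq.

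The genes, lists and tests were chosen with earlier results of these data known. Values in every library are given for genes called between BAL101553 and control, the 5 MMPs, ADAMs and ADAMTSs with the highest control CPM per kb, the TIMPs, *Mmp2*, *Mmp9*, *Mmp14*, *Adam10* and *Adam17*, and the 5 largest rises and falls in the libraries labelled astrocytes; other genes named with values were chosen after their values were seen. At these depths counting error is small beside the spread between libraries except for genes with few reads, and 3 reads or fewer were taken as the limit of detection.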

Additional observations from a re-analysis of the deposited data

How the results depend on the processing

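The 12 genes that rose and 3 that fell between BAL101553 and control became 1 to 10 and 0 to 3 when 1 library was left out. With control 1 and 2 and BAL101553 2 and 3 alone, the only subset with 2 libraries per group that was fitted, both became 0. The unadjusted counts and those of the other tests for that subset are given in the report. The 15 called genes of the regulator lists became 4 to 16 with 1 library left out and 0 with that subset. All other tests, scalings and filters kept these counts within 1.5 times, but *Mmp3* was not called with all 9 libraries in one model (adjusted p = 0.0998), *Mmp13* with RLE scaling (adjusted p = 0.0509) and *Adamts7* with total library sizes (adjusted p = 0.0530). Over all genes, the 1860 calls became 2832 with DESeq2 and 3022 with all 9 libraries in one model. They became 193 to 1712 with 1 library left out and 1 with the subset of 2 libraries per group. The cause was not tested. *Adam33*, *Mmp23* and *Adam1a* could not be tested with at least 10 counts in every library, which left 9 genes called higher.

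In the libraries labelled astrocytes, the 20 genes called higher became 8 when at least 10 counts were required in every library, a filter that leaves 35 of the 55 genes. With 1 library left out there were 19 to 22 higher and 27 to 29 lower. *Mmp23*, called at a log2 fold change of 1.02 (adjusted p = 0.0398), was not called with DESeq2 (adjusted p = 0.0534) or with at least 1 count in any library (adjusted p = 0.0511). It was called in only 1 of the 6 fits that left out 1 library, and without BAL101553 library 1 its log2 fold change was 0.74 (adjusted p = 0.129).

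Directions that reversed were all of genes not called in the comparison concerned. The groups of called genes did not overlap, so that leaving out 1 library could hardly reverse them. *Adam10* between BAL101553 and control was 0.0248 with total library sizes. With 1 library left out, *Adamts2* lay between -0.0808 (without control 1) and 0.2869, and *Mmp1b* between -0.4298 and 0.0433 (without BAL101553 library 3), with 0.0019 without control 3. *Adamts5* between the libraries labelled astrocytes and BAL101553 was 0.089 with upper quartile scaling, 0.11 with total library sizes and 0.13 with at least 10 counts in every library, and lay between -0.2058 and 0.0218 (without astrocyte library 3) with 1 library left out.

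Equal replicate numbers did not pair control and BAL101553 libraries (correlations of deviations from the group means 0.102, 0.005 and 0.112). With the replicate number as a block, 10 genes were called higher and 3 lower, and *Mmp13* (adjusted p = 0.0809) and *Adam17* (adjusted p = 0.0513) were not called. In the libraries labelled astrocytes the block gave 20 higher and 28 lower.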
